A study of Mus musculus with 4 samples.

Results

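The cells described here are those that the deposited annotation of the mouse ventromedial prefrontal cortex (vmPFC) calls endothelial. They were taken by that label alone, and there were 2738 of them among 20047 annotated cells. The study tied single-cell transcriptomes to projection targets. In every mouse, 5 rAAV2-retro viruses, which enter axons and travel back to the cell body, were injected on one side, each into its own target: the agranular insular cortex (AI), dorsomedial striatum (DMS), mediodorsal thalamus (MD), basolateral amygdala (BLA) and lateral hypothalamus (LH). Each virus carried EGFP under a short CAG promoter with a barcode of 15 bases in its transcript, and a projectome library, made by PCR on the barcode from the same cDNA as the transcriptome, counted the barcodes per cell.

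All animals were male C57BL/6 mice injected at 8 weeks of age and killed 6 weeks later, when the prelimbic and infralimbic areas were dissected. The unsorted group held 3 libraries of 1 mouse each, and the FAC-sorted group held 1 library pooled from 3 further mice and sorted for EGFP. Every library came from injected animals, so no uninjected cells set a background, and the non-neuronal types served as each other's reference. The unsorted libraries held 5775 to 6614 annotated cells and 70705143 to 75620545 RNA UMIs (unique molecular identifiers, random tags that count molecules), with 20443286 to 32895529 projectome reads. A cell barcode listed in another library was found for 18 of the endothelial cells, and leaving such cells out reversed none of the differences between cell types.

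Brain endothelial cells line the vessels and form the blood-brain barrier. Their tight junctions are built on claudin-5, the product of Cldn5, and glucose crosses them through the transporter encoded by Slc2a1. Contractile smooth muscle cells, which express genes of actin-binding and myosin proteins such as Tagln and Myl9, and pericytes wrap the same vessels. None of these cells sends an axon to a target region.

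The 5 barcodes are shown because every barcode UMI counted below is of one of them. Capitals mark the bases that differ from the DMS barcode, which is written in lower case throughout, and the closest pair differed at 10 of 15 positions.
AI: CTGCAcCGaCGcAtt
DMS: gaaggcacagacttt
MD: gTTggcTGCAaTCCA
BLA: AaGACGCcGTCGCAA
LH: TaTTCGGAGgacGAC

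Host genes could be read in these cells through the projectome library itself. Of the projectome reads of endothelial cells, 59.9%, 59.99% and 65.0% in unsorted mice 1, 2 and 3 matched no barcode within 2 mismatches, against 14.8% to 15.1% in excitatory neurons. The other non-neuronal types had means of 60.7% in oligodendrocytes, 68.9% in microglia, 72.6% in OPC, 74.2% in astrocytes and 81.5% in activated microglia, so a high share was common to all of them. The unmatched reads gave 34.3 UMIs per endothelial cell, 93835 in all, here called off-barcode UMIs. Their 15 bases (a tag) were searched in the mouse transcripts of GENCODE vM21 and kept where exactly 1 gene also matched at least 10 of the 21 bases of the barcode primer 9 bases upstream. This named 999 of 3290 tags, in 897 genes, and the same search on the antisense strand named 134. The genes below were chosen after their values were seen, the clusters come from the same cDNA, and tag values are given without a test. A tag is compared with itself across cells, never with the tag of another gene.

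The defining marker was found under the label. The Cldn5 tag was counted in 5, 16 and 9 UMIs in the endothelial cells of mice 1, 2 and 3, which makes 30 UMIs in 29 cells, against 2 UMIs in all other cell types of these mice. Its rate was 3.17 ± 1.75 per 10000 off-barcode UMIs (SD, n = 3 mice). At least 30 UMIs in endothelial cells were found for 151 named tags, and 32 of them (21.2%) had a rate at least 5-fold above the other types pooled and above each type singly. The Cldn5 tag met this minimum exactly, through its endothelial UMIs alone. Here and for the clusters below, the minimum was set on the group in which a tag was called, so these shares are not a test. These 32 tags lay in 29 genes. The tag of Pltp, phospholipid transfer protein, had 71, 75 and 92 UMIs in the endothelial cells of the 3 mice and 4 in all other types together. Id1, a regulator of endothelial growth, had 47, 88 and 57 UMIs against 10 elsewhere. For Slc2a1 the counts were 34, 56 and 33 against 26 elsewhere. Esam, an endothelial cell adhesion molecule, had 47, 59 and 61 UMIs against 11 elsewhere, and Klf2, a transcription factor induced by blood flow, had 28, 27 and 42 at the tag in its coding sequence against 8 elsewhere. In each of the 3 mice the endothelial rate of these 6 tags was above the rate counted in each other type, but few UMIs stood behind the rarer types. Not all of the 32 tags held in each mouse. Those of Serpinb6a, Tcf12, Dock6 and Rhbdf1 were above each other type in 1 mouse, and those of Clic4 and Sept10 in 2. In a single mouse a count of 0 allows a rate of up to 5.67 to 7.62 per 10000 in astrocytes and 26.9 to 36.7 in activated microglia, above the endothelial rate of Cldn5 in both and of most of these tags in the latter.

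The tags that carry this check are printed in lower case. Each is followed by its place on GRCm38 (mm10), the build of both the transcripts and the authors' reference.
Cldn5: gcctccgcactgctc
Pltp: cagatcccccttcct
Slc2a1: cgtcctgctgctatt
Myl9: attgataagaagggc
Tagln: tgttcctctcatcct
Ptgds: acctttagcaaggcc
The Cldn5 tag lies on the plus strand at chr16:18777503-18777517, the Slc2a1 tag on the plus strand at chr4:119135852-119135866, the Myl9 tag on the plus strand at chr2:156781085-156781099, the Pltp tag on the minus strand at chr2:164840156-164840170 and the Ptgds tag on the minus strand at chr2:25467861-25467875, all in coding sequence. The Tagln tag lies in the 3′ untranslated region on the minus strand at chr9:45930146-45930160. Upstream of each tag the transcript resembles the primer, as the following sites show, in which capitals mark the bases shared with it.
Myl9 site: GaggTGGACGAGaTGTACcgc
Slc2a1 site: attgTGGcCGAGCTGTtCAgc
Cldn5 site: ctgggcGcgGcGCTGTACAtc
The Myl9 site shares 14 bases, the Slc2a1 site 13 and the Cldn5 site 10, which is the least that was accepted. The sites of the printed Pltp and Tagln tags and of the Egfl7 tag also share 10 and that of the coding Klf2 tag 11, so these tags and that of Cldn5 are not named under a minimum of 12 bases. The tags of Slc2a1, Myl9, Ptgds, Id1, Esam, Tpm1 and Ppp1r14a share 12 to 15.

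The label was not uniform. The annotation divides it into leiden cluster 3 (2113 cells, 77.1% ± 1.16 of the endothelial cells of an unsorted mouse), cluster 8 (603 cells, 22.1% ± 1.22) and cluster 15 (22 cells, 0.798% ± 0.0884; SD, n = 3 mice). A second clustering by the authors, louvain, placed 24 cells of leiden cluster 3 with its cluster 0, which is mostly excitatory neurons, and 32 with its cluster 12, which is mostly activated microglia. Of leiden cluster 8 it placed 9 cells with its cluster 2, mostly microglia, and 1 with its cluster 4, mostly oligodendrocytes. The tag values of cluster 8 include these cells. Except where cells are divided by RNA UMIs, the tag values of cluster 3 are those of its remaining 2057 cells, which carried all 30 Cldn5 UMIs. In cluster 8 none was seen among 12465 off-barcode UMIs, which allows a rate of up to 2.41 per 10000, beside 4.06 in cluster 3. The Pltp tag had 233 UMIs in cluster 3 and 2 in cluster 8, Id1 had 188 and 1, Egfl7, a secreted endothelial factor, had 195 and 2, and Slc2a1 had 122 and none. Of 123 tags with at least 30 UMIs in cluster 3, 8 (6.5%) were at least 5-fold above cluster 8. A cluster 8 count at or under 3 was computed with 3, which is the rate of 2.41 per 10000. Tags of low rate in cluster 3, Cldn5 at 4.06 among them, thus could not be called. For calls in cluster 8 the same floor in cluster 3 was a rate of 0.406, so the shares of the clusters are not comparable.

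Of 21 tags with at least 30 UMIs in cluster 8, 4 (19%) were at least 5-fold higher there than in cluster 3. Tagln, the actin-binding protein transgelin, had a rate of 28.1 per 10000 off-barcode UMIs in cluster 8 and 1.08 in cluster 3. Myl9, a regulatory light chain of myosin, had 35.3 and 3.79, and Tpm1, tropomyosin, had 29.7 and 1.49. Ppp1r14a, an inhibitor of myosin phosphatase, had 362 and 51.1, with 589 in oligodendrocytes. The tags of Tagln, Myl9 and Tpm1 are among the 32 called for the whole label. Of their endothelial UMIs, 35 of 43, 44 of 73 and 37 of 48 were in cluster 8. Esam did not separate the clusters to that degree, with 20.3 per 10000 in cluster 3 and 13.6 in cluster 8, nor did Col4a2, a collagen of the vascular basement membrane, with 5.28 and 4.81. Cluster 8, 603 of the 2738 cells, thus had no Cldn5 UMI, at a depth that allows the rate given above. It is called by its number below, and values given for endothelial cells are those of the whole label, with cluster 8 included. Cluster 15 was led by Ptgds, prostaglandin D synthase, at 926 per 10000 against 9.35 in cluster 3 and 7.22 in cluster 8. Ptgds was the 1 tag called of 2 tested there (50%), with a minimum of UMIs below 30, and its rate in oligodendrocytes was 547.

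The 24 cells shared with the excitatory louvain cluster carried tags that were also high in excitatory neurons. Gria1, a glutamate receptor subunit, had a rate of 54.7 per 10000 off-barcode UMIs in them, 2.30 in the rest of cluster 3, 57.2 in excitatory neurons and 80.1 in inhibitory neurons. Ina, a neuronal intermediate filament, had 27.4, 0.27, 15.6 and 7.10 in the same order. With a minimum of UMIs below 30, 7 of 31 tags tested (22.6%) were at least 5-fold above clusters 3 and 8. Of the 7, Ina, Pdzrn4, Atp9a and Jph4 had their highest rate among the cell types in excitatory neurons. Tceal3 had 51.3 in excitatory and 65.8 in inhibitory neurons, and Scrn1 had 34.2 in excitatory neurons and 45.6 in oligodendrocytes. Atp9a and Jph4 had 21.9 and 22.8 in excitatory neurons, beside 19.0 and 19.6 in oligodendrocytes. Endothelial tags were also counted in these cells. The rate of Egfl7 was 8.55 per 10000, against 26.4 in the rest of cluster 3 and 0.81 in excitatory neurons. Egfl7 had 5 UMIs, Pltp and Id1 3 each, Slc2a1 1, and Cldn5, Esam and the coding tag of Klf2 had 0 of 5849 off-barcode UMIs, where a count of 0 allows a rate of up to 5.13 per 10000.

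**Figure D1:**
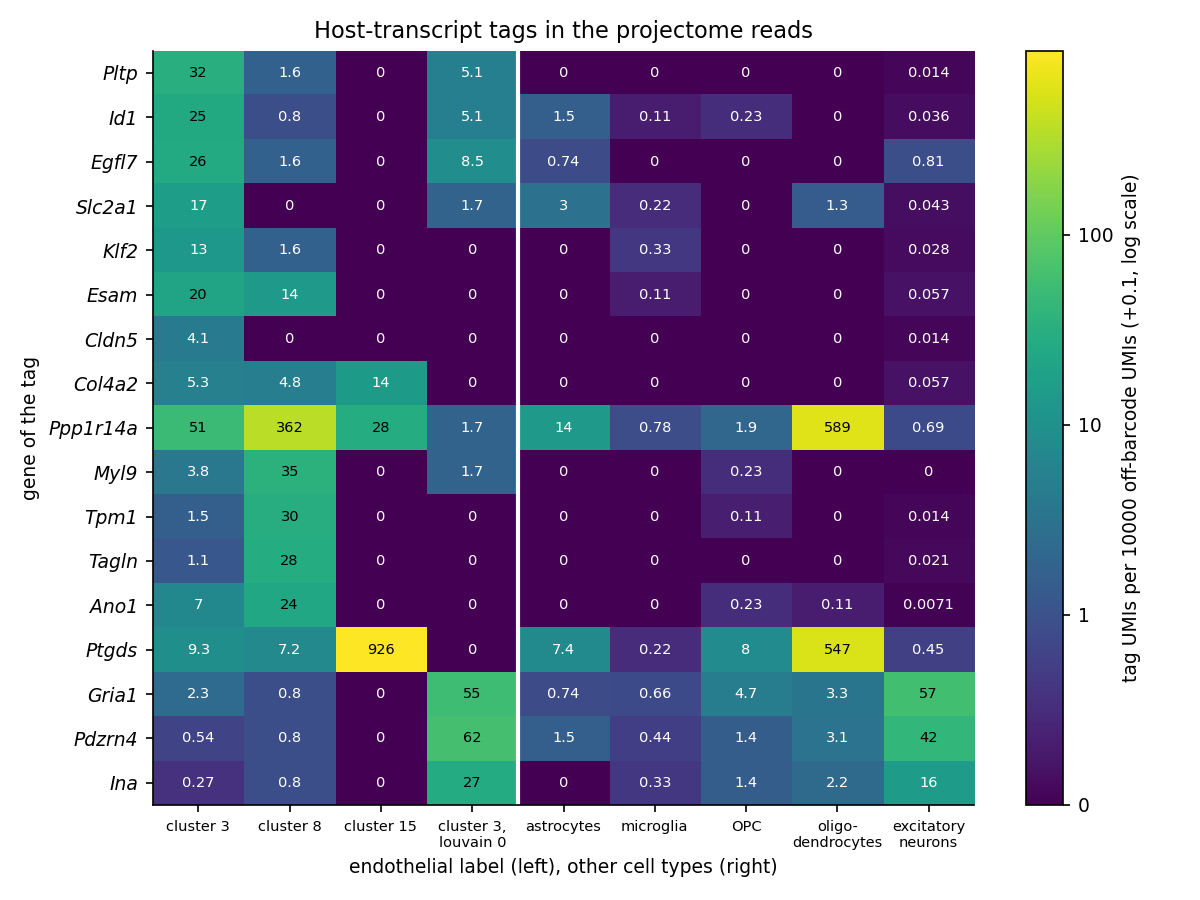
Rate of 17 host-transcript tags (rows, 1 tag per gene) in the clusters of the endothelial label and in other cell types (columns), as UMIs per 10000 off-barcode UMIs over the 3 unsorted mice, with the colour on a log scale. Pltp, Id1, Egfl7, Slc2a1, Klf2 and Cldn5 are highest in cluster 3, Myl9, Tpm1, Tagln and Ano1 in cluster 8, and, of the columns of the endothelial label, Gria1, Pdzrn4 and Ina are highest in the cells of louvain cluster 0.

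Endothelial cells were recovered from every unsorted mouse and from none of the sorted ones. They made up 1018 of 6614 annotated cells in mouse 1 (15.4%, 95% exact Clopper-Pearson interval 14.5 to 16.3), 872 of 5966 in mouse 2 (14.6%, 13.7 to 15.5) and 848 of 5775 in mouse 3 (14.7%, 13.8 to 15.6). Intervals and limits of this kind cover counting error alone. The FAC-sorted pool held 0 of 1692, which allows a share of up to 0.177%. Of its 73 non-neuronal cells 57 were microglia, 11 oligodendrocytes and 4 oligodendrocyte progenitors (OPC), and 0 of 73 allows a share of up to 4.11%, while endothelial cells formed 28.05% ± 0.896 of the non-neuronal cells of the unsorted mice (SD, n = 3). The exact one-sided permutation test of 1 library against 3 gave p = 0.25, the smallest it can give. The gate selected EGFP, which can set this share.

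Per cell, endothelial cells held the least RNA of the non-neuronal types by the median. Their median RNA UMIs were 2874, 3076.5 and 3176.5 in mice 1, 2 and 3, and the 3 values lay below those of every other non-neuronal type. Astrocytes came nearest, with 3359 to 3395, and the difference was -337 ± 171 UMIs (SD, n = 3). For leiden cluster 3 alone it was -9.83 (exact sign-flip p = 0.75), with mouse 3 above its astrocytes at 3652, so the lower median against astrocytes was not seen in every mouse without cluster 8. Microglia held a mean of 4176 UMIs over the 3 mice, OPC 4203, oligodendrocytes 4751 and activated microglia 4932. The median of detected genes was 1543, 1600.5 and 1627, which was below the matching microglial and OPC values in each mouse, with differences of -50.3 ± 30.4 and -765 ± 10.6 genes. Against microglia the difference was 85.3 genes in leiden cluster 3 alone and 385 by the mean over cells. The mitochondrial share of UMIs was 7.19%, 7.02% and 7.06%, with a difference of -3.66 ± 0.259 percentage points from oligodendrocytes, while the differences of -0.0646 ± 0.0806 from microglia and -0.0819 ± 0.104 from OPC were no larger than their spread and came to -0.0180 and -0.0230 without mouse 2. Every exact sign-flip test of these 15 differences gave p = 0.25, the smallest that 3 mice allow, and an adjusted p of 0.25.

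The median hides a long upper tail. The upper quartile of RNA UMIs was 4887.75, 5329.5 and 5967.25 in the 3 mice, above that of astrocytes in each, and by the mean over cells endothelial cells exceeded astrocytes by 1221 UMIs, microglia by 499 and OPC by 244. Above 20000 RNA UMIs lay 16, 21 and 20 endothelial cells in mice 1, 2 and 3. No astrocyte and no cell of the microglia label in the unsorted mice was in that range, 1 activated microglial cell of mouse 1 was, 6 OPC were, as 1, 4 and 1, and oligodendrocytes had 11, 9 and 8. The types differ in size. As shares of their cells these were 1.57%, 2.41% and 2.36% in endothelial cells and 1.76%, 1.54% and 1.45% in oligodendrocytes. In mouse 1 the share was thus higher in oligodendrocytes, and the activated microglial cell was 3.33% of its type there.

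**Figure D2:**
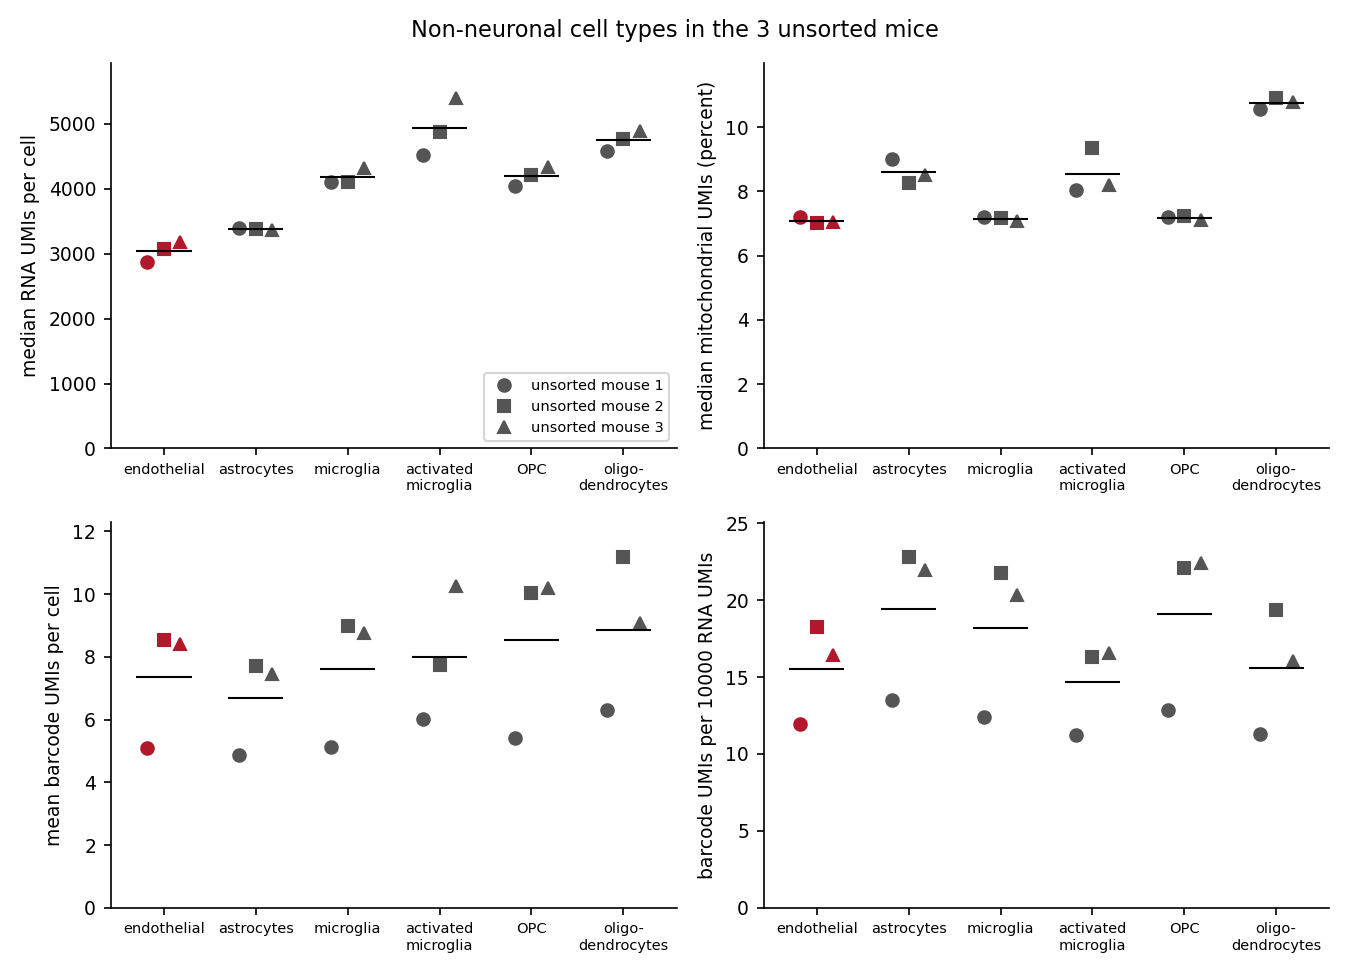
Median RNA UMIs, median mitochondrial percent, mean barcode UMIs and barcode UMIs per 10000 RNA UMIs of the 6 non-neuronal types, with 1 point per unsorted mouse and a line at the mean. Endothelial cells (red) have the fewest RNA UMIs, 2874 to 3177, and their barcode values of 5.08 to 8.53 UMIs per cell lie within the range of the other types, with mouse 1 lowest in every type.

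Barcode UMIs were low in endothelial cells. By the mean they lay within the range of the other non-neuronal types, and by the median they were the lowest of the 6 types in each mouse. The mean was 5.08, 8.53 and 8.42 UMIs per cell in mice 1, 2 and 3, and the median 3, 5 and 5, beside medians of 4, 8 and 8 in microglia and 5, 8 and 8 in OPC. Leiden cluster 3 alone had medians of 3, 6 and 6, beside 4, 6 and 6 in astrocytes. Without cluster 8 the median thus tied with that of astrocytes in mice 2 and 3. Excitatory neurons of the same mice had means of 80.9, 108 and 110 and medians of 35, 52 and 49. Their median RNA UMIs were 21589 on average over the mice, beside 3042 in endothelial cells. Per 10000 RNA UMIs excitatory neurons held 39.6, 50.2 and 49.8 barcode UMIs, beside 12.0, 18.3 and 16.4 in endothelial cells. Mouse 1 was low in each of the types compared, so differences were taken within mice. Endothelial minus astrocyte barcode UMIs came to 0.670 ± 0.390 (SD, n = 3; higher in 3 of 3 mice). The difference was -0.272 ± 0.214 from microglia, -1.20 ± 0.771 from OPC and -1.51 ± 1.02 from oligodendrocytes, lower in 3 of 3 mice each, and -0.663 ± 1.34 from activated microglia, lower in 2 of 3. Without mouse 2 the oligodendrocyte difference was -0.944 and that from activated microglia -1.39, and without mouse 3 the latter was -0.0777. The exact sign-flip p was 0.25 for the 4 types whose difference had 1 sign in all mice, with an adjusted p of 0.3125, and 0.5 for activated microglia. The excess over astrocytes turned into a deficit of -0.0608 without the endothelial cells that louvain placed in clusters 0, 2, 4 and 12.

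In cells of 2000 to 6000 RNA UMIs the endothelial mean was the lowest of the 6 types in each mouse. RNA content still differed inside this window, where the median was 2901, 2998.5 and 2978 RNA UMIs in endothelial cells of mice 1, 2 and 3 and 4113.5, 4083 and 4172 in microglia. The endothelial mean was 3.41, 5.43 and 5.56 barcode UMIs in mice 1, 2 and 3, beside 4.93, 7.87 and 7.73 in astrocytes. There the difference was -2.04 from astrocytes, -2.73 from microglia, -2.07 from activated microglia, -2.92 from OPC and -1.35 from oligodendrocytes, with an exact sign-flip p of 0.25 each. Per 10000 RNA UMIs of the same cells the difference from oligodendrocytes was 0.927. By the median over all cells the barcode UMI difference was -2.33 from microglia. The difference from microglia changed sign in other settings, to 0.622 in leiden cluster 3 alone, 0.170 with UMIs of at least 2 reads and 0.0601 in cells of at most 10 percent mitochondrial UMIs.

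Relative to RNA, endothelial cells stood below astrocytes, microglia and OPC. They held 12.0, 18.3 and 16.4 barcode UMIs per 10000 RNA UMIs, against 13.5, 22.8 and 22.0 in astrocytes, 12.4, 21.8 and 20.3 in microglia and 12.9, 22.1 and 22.4 in OPC. The deficits were -3.86 ± 2.08, -2.63 ± 1.88 and -3.55 ± 2.56 (SD, n = 3), each in 3 of 3 mice, with an exact sign-flip p of 0.25 and an adjusted p of 0.417. With UMIs of at least 2 reads the differences were -0.496 from astrocytes (exact sign-flip p = 0.5), -0.135 from microglia (p = 0.75) and -0.734 from OPC (p = 0.75), without the same sign in every mouse, on a scale that holds fewer UMIs. Without mouse 3 the difference from OPC was -2.34. From oligodendrocytes they differed by -0.0149 ± 0.955 (exact sign-flip p = 1) and from activated microglia by 0.857 ± 1.05 (p = 0.5), both smaller than the spread between mice. The difference from oligodendrocytes was -2.20 in cells of at most 10 percent mitochondrial UMIs and -0.870 without the endothelial cells of louvain clusters 0, 2, 4 and 12, with an exact sign-flip p of 0.25 each, and 0.531 without mouse 2. That from activated microglia was 0.303 without mouse 2 and 1.35 without mouse 3. In cells of 2000 to 6000 RNA UMIs the endothelial values were 10.4, 16.4 and 16.8 per 10000, again below the 12.6, 21.7 and 20.6 of microglia.

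Nearly every endothelial cell held at least 1 barcode UMI once single UMIs, which the deposited tables list as 0, were counted. The share was 96.0%, 98.9% and 98.3% in the 3 mice. After thinning each cell to 1000 RNA UMIs, a depth that no cell missed, the expected share was 69.0%, 82.8% and 80.6%, below the 76.4%, 90.5% and 89.0% of astrocytes and the 73.8%, 87.6% and 86.4% of microglia. Oligodendrocytes had 64.5%, 81.2% and 77.8% and excitatory neurons 81.4%, 89.5% and 88.4%, so the endothelial share lay within the range of the non-neuronal types.

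Endothelial cells held 5.85% ± 0.195 of the RNA UMIs of the annotated cells of an unsorted mouse and 2.40% ± 0.208 of the barcode UMIs of the same annotated cells (SD, n = 3).

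Most of these barcode UMIs were of the DMS barcode. It gave 2.98 to 5.28 UMIs per endothelial cell and 60.9% ± 1.99 of all barcode UMIs (SD, n = 3 mice), MD gave 16.7% ± 2.81, LH 11.8% ± 2.72, AI 9.05% ± 1.88 and BLA 1.49% ± 0.0588. Microglia had 65.0% ± 0.219 for DMS and 14.8% ± 1.55 for MD, whereas excitatory neurons had 44.2% ± 0.710, 24.2% ± 0.394 for MD and 17.5% ± 1.64 for LH. The order of the barcodes, with DMS first and BLA last, was common to the 3 types. With single UMIs counted, the endothelial share of DMS was 56.0% and that of BLA 3.41%.

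**Figure D3:**
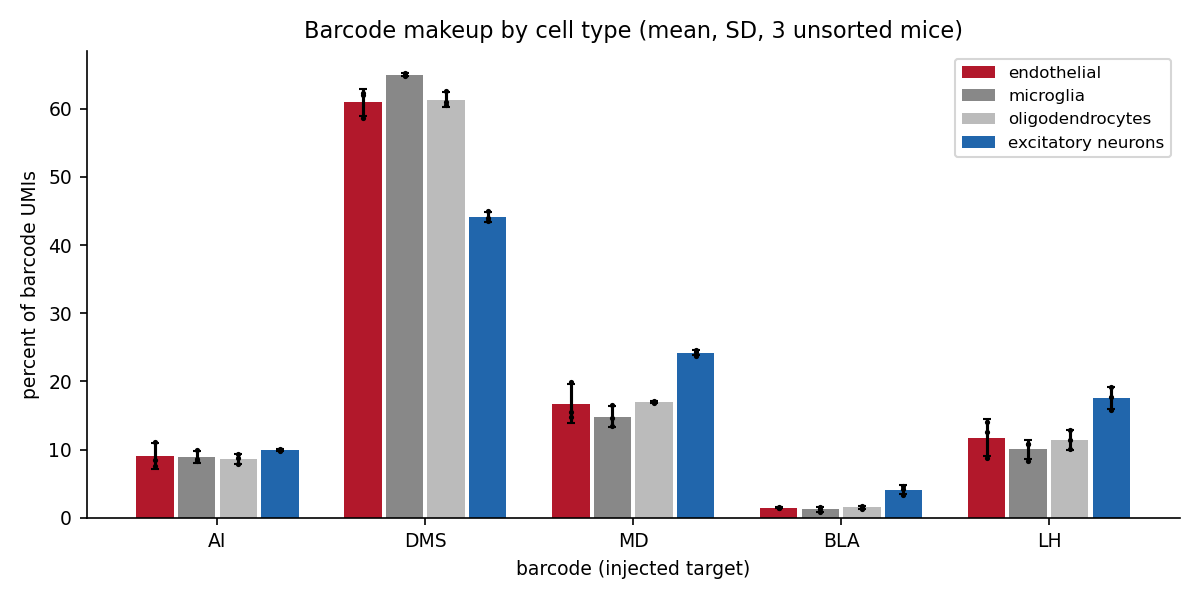
Share of each barcode in the summed barcode UMIs of endothelial cells, microglia, oligodendrocytes and excitatory neurons. Bars are means over the 3 unsorted mice, error bars are SD and dots are single mice. DMS takes 60.9% in endothelial cells and 44.2% in excitatory neurons.

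The molecules behind the counts were read fewer times than those of neurons. Endothelial barcode UMIs had 7.55, 8.32 and 7.22 reads each in mice 1, 2 and 3, and excitatory UMIs 26.7, 33.9 and 33.5. The difference was -23.7 ± 3.94 reads (SD, n = 3; exact sign-flip p = 0.25). Among the other non-neuronal types the means were 2.43 in activated microglia, 3.96 in astrocytes, 5.19 in microglia, 6.44 in OPC and 10.2 in oligodendrocytes, so the endothelial mean of 7.70 lay within their range. A single read supported 75.9% ± 1.76 of endothelial barcode UMIs and 58.8% ± 1.66 of excitatory ones. The same UMI occurred with a further barcode in the same cell for 11.1% ± 1.49 of endothelial UMIs, beside 40.3% ± 1.28 in excitatory neurons, and UMI and barcode together occurred in a further cell for 2.48% ± 0.0373 and 1.90% ± 0.187.

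Within the label, barcode UMIs followed RNA UMIs. Spearman's rho across cells was 0.46, 0.62 and 0.64 in the 3 mice, as a description of cells that share a library. When the endothelial cells of mouse 2 were divided into 4 equal sets by RNA UMIs, the sets held means of 3.96, 4.67, 6.40 and 19.1 barcode UMIs, and the uppermost set supplied 55.9% of all endothelial barcode UMIs. It supplied 54.2% in mouse 1 and 54.1% in mouse 3. Per 10000 RNA UMIs the sets of mouse 1, from lowest to uppermost, held 15.8, 11.8, 9.99 and 12.1 barcode UMIs, those of mouse 2 held 22.5, 17.8, 15.96 and 18.5 and those of mouse 3 held 20.0, 16.4, 16.8 and 15.7. In each mouse the lowest set had the highest ratio, and in mice 1 and 2 the ratio was higher in the uppermost set than in the one below it. The 24 cells of louvain cluster 0 held 31.9.

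Clusters 3 and 8 differed in the same way. Cluster 3 had medians of 3089.5, 3368 and 3652 RNA UMIs in mice 1, 2 and 3, and cluster 8 had 2386, 2482 and 2581. Mean barcode UMIs were 5.66, 9.53 and 9.52 in cluster 3 and 2.90, 5.27 and 4.59 in cluster 8, a difference of 3.98 ± 1.11 (SD, n = 3; exact sign-flip p = 0.25). These means of cluster 3 include the 24 cells of louvain cluster 0. The difference was 1.41 without cells above the 90th percentile of RNA UMIs and 0.917 in cells of 2000 to 6000 RNA UMIs. Per 10000 RNA UMIs the means were 15.7 ± 3.16 and 14.7 ± 3.82. The difference within mice was 1.00 ± 0.812, with cluster 3 higher in 3 of 3 mice (exact sign-flip p = 0.25, the smallest that 3 mice allow). In mouse 2 the values were nearly equal, at 18.3 and 18.2.

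Cells of many RNA UMIs stood apart in both readouts. The 57 endothelial cells above 20000 RNA UMIs were 2.08% of the label and held 20.8% of its barcode UMIs, at a mean of 72.0 per cell. Of these cells 56 belonged to cluster 3 and 23 to louvain cluster 0. The ranges of cluster 3 given here include its cells of louvain clusters 0 and 12. Within cluster 3 the mean went from 4.25 barcode UMIs up to 5000 RNA UMIs to 9.29 between 5000 and 10000, 14.8 between 10000 and 20000 and 72.6 above. A list of 76 tags in 74 genes, at least 5-fold higher in excitatory neurons than in the 5 other non-neuronal types pooled (76 of 945 tested, 8.04%) and chosen without the endothelial cells, gave 0.174%, 0.222% and 0.233% of off-barcode UMIs in the lower 3 ranges and 1.96% in the highest. In excitatory neurons above 20000 RNA UMIs it gave 3.01%. By mouse, the highest range had 1.60%, 2.06% and 2.09%, above each lower range in each mouse. The 8 tags of cluster 3, which were chosen in the cells outside louvain cluster 0, gave 2.26%, 2.14% and 2.10% in the lower 3 ranges and 1.02% in the highest. This list is not purely endothelial, since its tag of Limch1 had a rate of 48.8 per 10000 off-barcode UMIs in astrocytes and 36.6 in endothelial cells. Without the cells of louvain cluster 0 the highest range kept 33 cells, with 59.3 barcode UMIs per cell, 0.914% of neuronal tags and 1.66% of cluster 3 tags. Which part the neuronal tags have in the barcode counts of these cells was not tested.

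**Figure D4:**
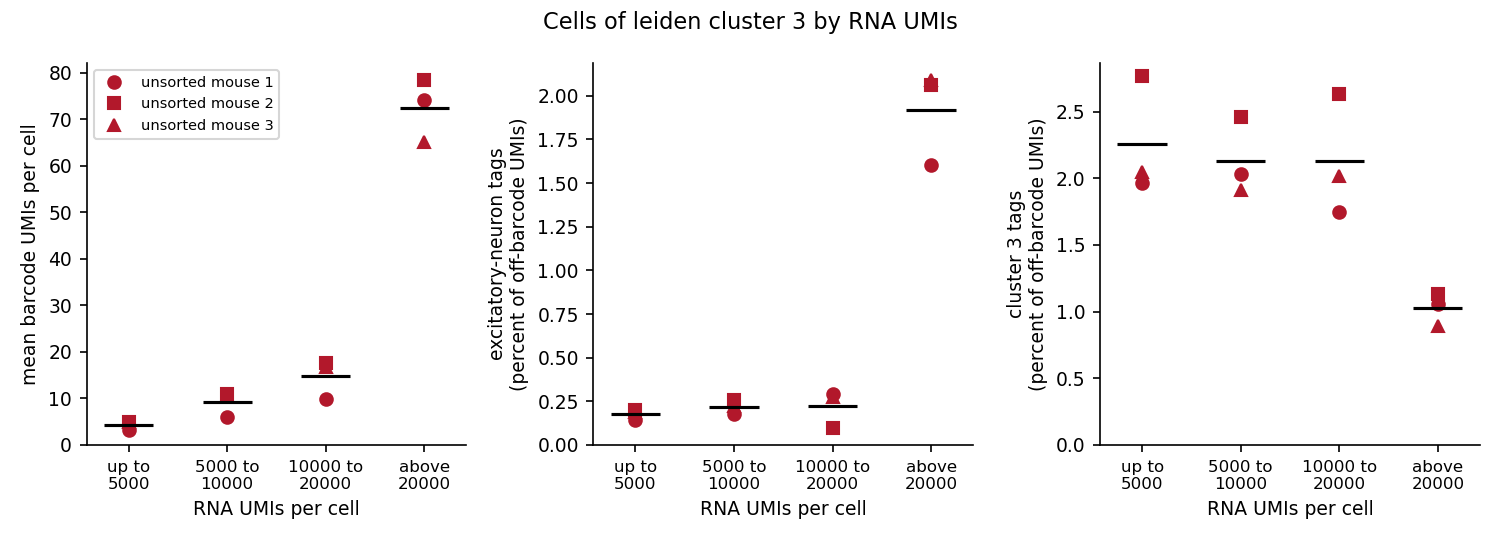
Mean barcode UMIs per cell, share of excitatory-neuron tags and share of cluster 3 tags among off-barcode UMIs, for leiden cluster 3 cells in 4 ranges of RNA UMIs, with 1 point per unsorted mouse and a line at the mean of mice. Above 20000 RNA UMIs the barcode mean is 65.1 to 78.3 and the neuronal tags make up 1.60% to 2.09%.

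A cell counted as barcoded for AI with more than 28 UMIs, for BLA with more than 35, for DMS with more than 101, for LH with more than 103 and for MD with more than 114. The authors set each threshold as the higher of a pair of values, 1 from non-neuronal cells and 1 from sorted cells without EGFP, so that a low share in endothelial cells is partly fixed by construction. They also removed the cells with the most barcode UMIs, and the highest total left in an annotated cell of the unsorted mice was 402 to 528. Of the 2738 endothelial cells 5 passed a threshold (0.183%, 95% exact Clopper-Pearson interval 0.0593 to 0.426), as 1, 2 and 2 in mice 1, 2 and 3. Among the other non-neuronal cells of all 4 libraries, 7 of 1773 oligodendrocytes, 3 of 1780 OPC, 0 of 2951 microglia, 0 of 495 astrocytes and 0 of 85 activated microglia did.

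All 5 cells lay among the 7 endothelial cells of their mouse with the most RNA. The cell of mouse 1 held 126 AI UMIs with 29123 RNA UMIs. In mouse 2, 1 cell held 209 DMS UMIs with 29675 RNA UMIs and the other 177 LH UMIs with 28522. Both cells of mouse 3 passed for MD, with 156 UMIs beside 34408 RNA UMIs and 137 beside 37597. Each passed for 1 barcode while 122 to 156 UMIs of the other 4 barcodes were counted in the same cell, among them 69 to 82 DMS UMIs in the 4 cells that passed for another target. Among their off-barcode UMIs the excitatory list had 5, 3, 9, 3 and 13 UMIs and the cluster 3 list 1, 2, 1, 1 and 3, in the order of the cells above. Excitatory neurons above 20000 RNA UMIs had means of 7.14 and 0.149 UMIs per cell for the same lists, and a single UMI in a cell cannot be told from such a background. The 5 cells were in leiden cluster 3, and louvain placed 2 of them with excitatory neurons.

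Just below the thresholds the same kind of cell was found. A cell of mouse 1 with 31522 RNA UMIs held exactly 103 LH UMIs, the threshold itself, and 105 MD UMIs. The next held 105 MD UMIs with 27933 RNA UMIs, 98 MD UMIs with 29895 and 86 DMS UMIs with 28198. When UMIs had to have at least 2 reads, 1 endothelial cell passed. Thresholds recomputed so that 1 in 1000 non-neuronal cells lay above gave 9 endothelial cells (0.329%), and each of the 9 had more than 20000 RNA UMIs. At the 99th percentile 60 passed (2.19%), of which 31 did. Endothelial cells are themselves non-neuronal, so these counts are partly fixed by construction.

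**Figure D5:**
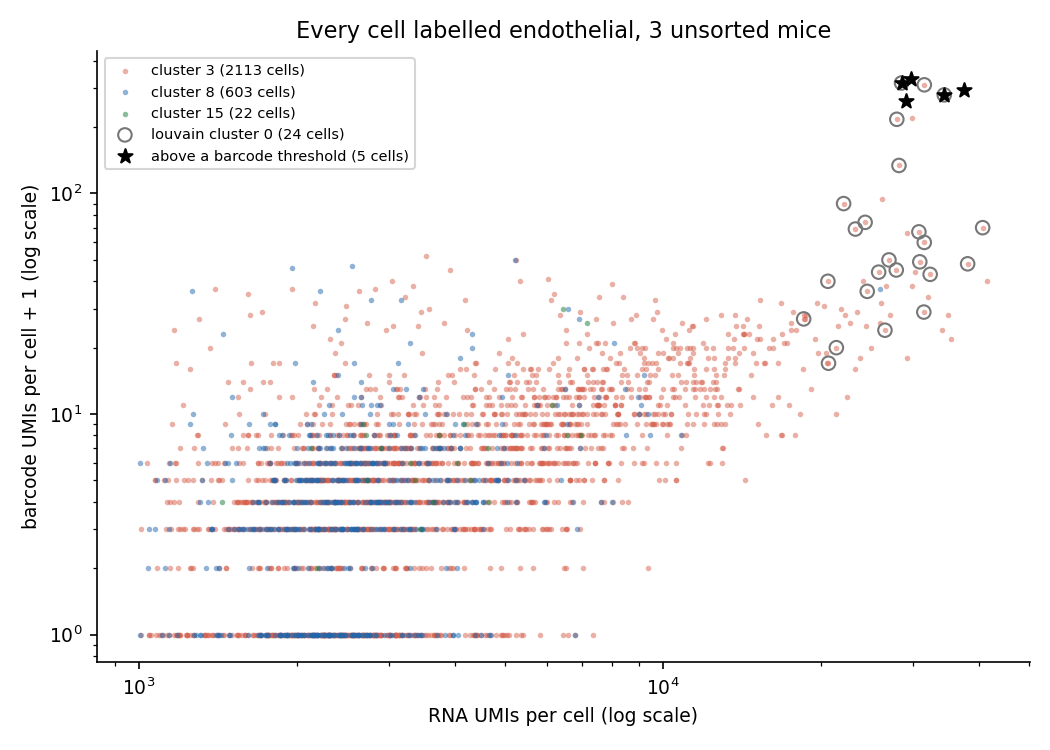
RNA UMIs against barcode UMIs plus 1, both on log scales, for each of the 2738 cells labelled endothelial, coloured by leiden cluster, with circles for the 24 cells of louvain cluster 0 and stars for the 5 cells above a threshold. The stars lie at 28522 to 37597 RNA UMIs and 263 to 331 barcode UMIs.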

How the data were processed

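Single-cell transcriptome and projectome libraries of 3 unsorted mice and 1 FAC-sorted pool were used. The authors deposited counts of barcode UMIs and of reads per cell, a table of projectome reads, and an annotation with RNA UMI counts, detected genes, the percent of mitochondrial UMIs and clusters. The submitters' processing notes name Cell Ranger and mm10. The authors kept cells by gene, UMI and mitochondrial limits and removed those of the highest barcode counts. No other doublet treatment was applied here, since no gene matrix was used. Besides cluster and library names, 5 columns of the annotation were not used.

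Cell types were the authors'. Barcode UMIs were averaged over cells, RNA measures taken as medians, and rates as summed barcode UMIs per 10000 summed RNA UMIs. Types were compared within mice by exact two-sided sign-flip tests over 3 mice (smallest p 0.25) with Benjamini-Hochberg adjustment over 5 types. The FAC-sorted share was compared by an exact one-sided permutation test. Reads were matched anew to the barcodes with up to 2 mismatches. Unmatched reads were counted as distinct cell, UMI and 15-base combinations, and tags with at least 30 UMIs in a cell type of the unsorted mice were searched in GENCODE vM21 transcripts. Tags with 11 or more of 1 base were left out (187). A rate against a pool at or under 3 counts was computed with 3. Named items were the 5 barcodes, the cell types, each cell above a threshold and clusters of at least 5 percent of the label. Cluster 15, the louvain groups and all genes were added after their values were seen. The members and lists were chosen with earlier results of these data known. The programs were checked on simulated data. Python 3.11.15, pandas 2.3.3 and SciPy 1.17.1 were used.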

Additional observations from a re-analysis of the deposited data

Results flagged for a closer look

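Each of the following lies outside the barcode counts that the libraries were made for. Reads matching no barcode made up 61.6% of the projectome reads of endothelial cells on average over the 3 unsorted mice. The share was also high in the other non-neuronal types, at means of 60.7% to 81.5%, so it is not particular to the endothelial label. In these reads the Cldn5 tag reached 30 UMIs in endothelial cells, which is the minimum for a tag to be tested there. Of 151 gene-assigned tags tested, 32 (21.2%) were at least 5-fold higher there than in the other types pooled and above each type singly.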

How the results depend on the processing

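The exact sign-flip test over 3 mice cannot go below 0.25, so alternatives were compared by direction and size. Of 371 alternatives over 38 results, 32 reversed a direction and 18 moved a value, and the cause was not tested. Barcode shares moved beyond the spread between mice in 5 alternatives for DMS, 5 for BLA and 1 for LH. The other moves were 6 in the count of cells above a threshold and 1 in the count of endothelial tags, which was judged by fold. Differences are endothelial minus the other type. By the mean over cells, RNA UMIs differed by 1221 from astrocytes, 499 from microglia and 244 from OPC, genes by 246 from astrocytes, 385 from microglia and 31.1 from activated microglia, and the mitochondrial percent by 0.175 from OPC. By the median over cells, barcode UMIs differed by -1.0 from astrocytes, and those per 10000 RNA UMIs by -0.307 from activated microglia and 0.410 from oligodendrocytes. Without cells above the 90th percentile of RNA UMIs, the mitochondrial percent differed by 0.0491 from microglia and 0.0310 from OPC, barcode UMIs by -0.970 from astrocytes, and those per 10000 by -0.377 from activated microglia and 0.896 from oligodendrocytes. In cells of 2000 to 6000 RNA UMIs the values were -2.04 for barcode UMIs against astrocytes, and -0.369 and 0.927 per 10000 against activated microglia and oligodendrocytes. In cells of at most 10 percent mitochondrial UMIs, that percent differed by 0.118 and barcode UMIs by 0.0601 from microglia. Per 10000 RNA UMIs the difference from oligodendrocytes was 0.358 with single UMIs kept, 0.346 with exact matches, 0.636 with a UMI counted once per cell and 0.304 with a UMI counted in 1 cell, and leaving out each mouse gave -0.353 to 0.531 (0.531 without mouse 2). In the same 4 settings DMS made up 56.0%, 55.9%, 57.7% and 55.5% of endothelial barcode UMIs and BLA 3.41%, 3.44%, 2.99% and 3.46%. UMIs of at least 2 reads gave 54.4% for DMS, 3.01% for BLA and 15.03% for LH, barcode UMI differences of 0.170 from microglia and 0.160 from activated microglia, 1 cell above a threshold and 19 endothelial tags. Cells above a threshold numbered 9 with 1 in 1000 non-neuronal cells above, 60 at the 99th percentile, and 3 to 4 when each mouse was left out (3 without mouse 2 or mouse 3). The counts at recomputed thresholds are partly fixed by construction. Endothelial tags numbered 24 to 26 when each mouse was left out, at the same minimum of 30 UMIs. The Cldn5 tag did not reach this minimum without any 1 of the mice. Chosen after seeing the data, cluster 3 alone gave differences of 85.3 genes, 0.622 barcode UMIs from microglia, 0.231 from activated microglia and 0.102 per 10000 from oligodendrocytes. Leaving out louvain clusters 0, 2, 4 and 12, also chosen then, gave -0.0608 barcode UMIs against astrocytes and 3 cells above a threshold, and a minimum of 12 primer bases gave 23 tags. The alternative with 4 libraries was not run, since the FAC-sorted pool held 0 endothelial cells. No paired analysis of the FAC-sorted against the unsorted group was possible because the 2 groups came from different mice.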
